A study of Mus musculus with 2 samples.

Results

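Lysine tRNAs carry lysine to the ribosome and come with 2 anticodons in the nuclear genome, CTT and TTT. Their reads were taken from the table of mature tRNAs as all rows whose locus name ends in LysCTT or LysTTT, which gave 14 of 217 rows, 10 of LysCTT and 4 of LysTTT. The study addressed whether AF357425, a C/D box snoRNA of the Dlk1-Dio3 locus that guides 2′-O-ribose methylation, has small RNA targets. Primary fibroblasts had been grown from ear clippings of mice of about 3 weeks of age (C57BL/6 in the sample labels, C57BL/6-J in the methods), and both groups had first been kept for 48 h in 10 μM KN93, which blocks CaMK-II and arrests the cell cycle in G1. AF25-low cells then received a gapmer against AF357425 (500 nM, snoRNA inhibition) and AF25-high cells a 3rd Generation Antisense against it (200 nM, snoRNA overexpression), for 24 h in both. Each condition had 1 library, without a control oligonucleotide, so the snoRNA level, the chemistry of the oligonucleotide and its dose cannot be told apart, and no test between the conditions was possible. AF357425 itself was not analysed here.

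LysCTT reads the codon AAG. LysTTT reads AAA and, through its wobble base, also AAG. Both are charged by the same lysyl-tRNA synthetase. In LysTTT the wobble uridine carries the modification mcm5s2U, which is set by the Elongator complex and a thiolation enzyme, and the adenosine 3′ of the anticodon carries t6A in both, with a further methylthio group in LysTTT that is added by Cdkal1. When angiogenin cuts tRNAs in their anticodon loops under stress, LysCTT is among the tRNAs whose 5′ fragments are often found. LysTTT is also known from human cells as the primer of reverse transcription of HIV-1. The reads of mature tRNAs here come from a library of small RNAs and are fragments, so a count of reads measures fragments and not the level of the intact tRNA.

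The libraries held 689078 reads of mature tRNAs in AF25-high against 472550 in AF25-low cells, in libraries of 28856715 and 29103700 reads. Values are given as reads and as RPM, the reads per 1e+06 reads of the whole library, where 1 read of the AF25-high library is worth 0.0347 RPM and 1 of the AF25-low library 0.0344 RPM. Ratios are the RPM of AF25-high cells divided by that of AF25-low cells, with exact 95% intervals after Clopper and Pearson, taken from how the reads split over both libraries. Sequencing reads are not independent molecules, and these intervals cover counting error only, without the spread among cultures or preparations. Of 9 microRNA genes fixed as markers of fibroblasts and other mesenchymal cells, 5 had at least 20 reads in the Ensembl table and Mir199a-1, Mir199a-2, Mir214 and Mir22 were not listed. They summed to 5973 reads in AF25-high against 5699 in AF25-low cells. Of 20 genes of epithelium, blood, endothelium, striated muscle and neurons, Mir200a was listed, with 6 reads in AF25-high against 0 in AF25-low cells. The study mapped most reads of both libraries to microRNAs, far more than these counts. Low or absent counts of microRNA genes in the Ensembl table therefore say little about the cells.

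Lysine tRNAs were among the most abundant tRNAs in both libraries. They had 86521 reads in AF25-high against 73123 reads in AF25-low cells, or 2998 RPM and 2513 RPM. By amino acid, lysine took the most reads in AF25-low cells and was the third in AF25-high cells, behind proline (4242 RPM) and next to arginine (3012 RPM). In AF25-high cells the shares of lysine and arginine among tRNA reads did not differ beyond counting error (95% intervals 12.5% to 12.6% and 12.5% to 12.7%). By anticodon, LysCTT was the second of 52 in both libraries after the proline tRNA ProTGG. LysTTT was the third in AF25-low and the fourth in AF25-high cells, where the tyrosine tRNA TyrGTA passed it. These ranks hold for the table of mature tRNAs. In the RPM that the study gives per anticodon, LysCTT ranks ahead of ProTGG in AF25-low cells. The RPM of LysCTT, LysTTT and 19 other anticodons lay within 5% of the list of RPM per anticodon from which the library totals were estimated, out of 48 compared. The RPM of the other 27 lay further from that list, among them ProTGG, GlyCCC, GlyGCC, GluTTC, GlnTTG, GlnCTG, AlaCGC, AlaAGC, ValCAC, ValAAC, ThrCGT, ThrTGT and LeuCAA, so their levels, ratios and ranks, and the side of 1 on which a ratio lies, can turn with the table used. LysCTT and LysTTT took part in the estimate of the library totals, so their closeness to the list is not an independent check.

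**Figure D1:**
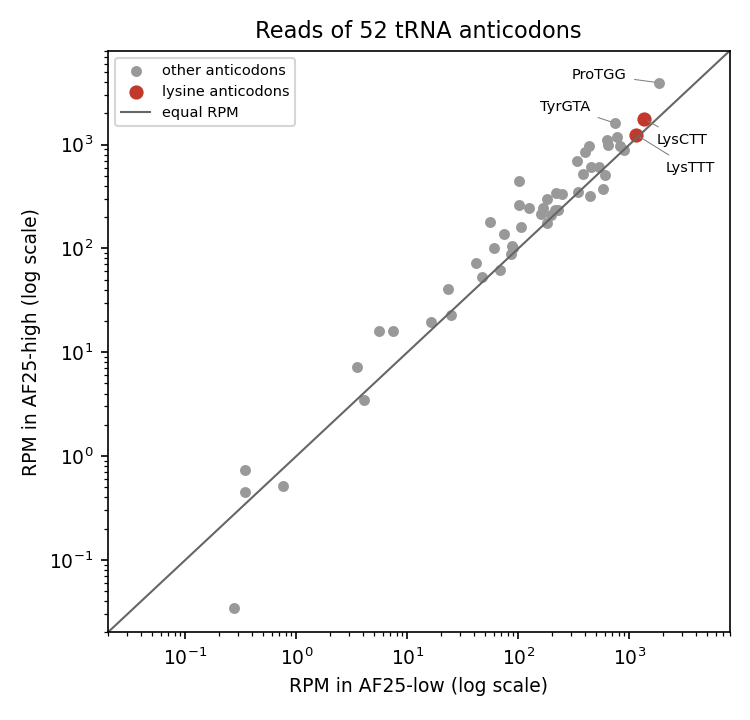
RPM of the 52 tRNA anticodons in AF25-low cells (x axis, log scale) and AF25-high cells (y axis, log scale), 1 library each; the line marks equal RPM. LysCTT and LysTTT (red) lie at the upper end and closer to the line than ProTGG (ratio 2.14) and TyrGTA (ratio 2.19).

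LysCTT had 50747 reads in AF25-high against 39514 in AF25-low cells, or 1759 RPM and 1358 RPM, a ratio of 1.30 (95% interval 1.28 to 1.31). LysTTT had 35774 and 33609 reads, or 1240 RPM and 1155 RPM, a ratio of 1.07 (1.06 to 1.09). Both anticodons thus had more RPM in AF25-high, and by RPM LysTTT was the nearer of them to equal levels. Together they had a ratio of 1.19 (1.18 to 1.21), against 1.47 (1.47 to 1.48) for all mature tRNAs. In bulk RNA, fewer cells that hold a fragment and fewer fragments per cell cannot be told apart.

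The direction of these ratios depended on how the libraries were scaled. When scaled within the tRNA table by the median of ratios, as in the deposited values, LysCTT had a ratio of 0.963 and LysTTT a ratio of 0.798, and scaled to the total of tRNA reads they had 0.881 and 0.730. These scalings shift the log2 ratio of every tRNA by -0.43 and -0.56, and under them LysCTT, not LysTTT, was the nearer to equal levels. LysCTT exceeded LysTTT under each of the 6 scalings used, since a scaling multiplies both by the same factor.

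In the order of ratios of the 48 anticodons that reach 50 reads in 1 of the libraries, LysCTT ranked 28 and LysTTT 36 from the top. The neighbours of LysCTT above were the histidine tRNA HisGTG (1.33, 1.28 to 1.38) and the glutamate tRNA GluTTC (1.33, 1.30 to 1.36). Below it were the glycine tRNA GlyCCC (1.21, 1.15 to 1.28) and the isoleucine tRNA IleTAT (1.20, 1.06 to 1.36). The intervals of HisGTG, GluTTC and IleTAT overlap that of LysCTT, while that of GlyCCC lies just below it. An overlap of intervals is not a test of a difference and does not show equal ratios. LysTTT stood between the alanine tRNAs AlaCGC (1.12, 1.06 to 1.18) and AlaAGC (1.08, 1.04 to 1.12) above and the threonine tRNA ThrAGT (1.07, 1.03 to 1.11) and the valine tRNA ValTAC (1.04, 0.980 to 1.10) below. The intervals of all these neighbours overlap that of LysTTT. GluTTC, GlyCCC, AlaCGC and AlaAGC lay further than 5% from the RPM behind the library totals, so their places can turn with the table used. By the fold changes the study gives per anticodon, GlyCCC and AlaCGC lie below equal levels and below LysTTT.

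The share of lysine among tRNA reads does not depend on the scaling between the libraries. It was 12.6% in AF25-high (95% interval 12.5% to 12.6%) and 15.5% in AF25-low cells (15.4% to 15.6%), a ratio of odds of 0.784 (0.776 to 0.793). Lysine tRNAs thus made up less of the tRNA reads in AF25-high, although their RPM was higher there. The most abundant other anticodons bear on this share: without ProTGG, TyrGTA and the glutamate tRNA GluCTC, the ratio of odds was 0.875 (0.866 to 0.885). LysCTT held 8.36% of tRNA reads in AF25-low and 7.36% in AF25-high, and LysTTT held 7.11% and 5.19%.

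Most of the reads lay at 1 locus per anticodon. The table names loci by chromosome and number without coordinates, so they are given here as the files name them. The locus chr3.trna292-LysCTT had 45704 reads in AF25-high against 36003 in AF25-low cells, or 1584 RPM and 1237 RPM. It held 90.1% of the LysCTT reads in AF25-high against 91.1% in AF25-low cells, and its ratio was 1.28 (1.26 to 1.30).

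The locus chr11.trna1816-LysTTT had 34648 reads in AF25-high against 32844 in AF25-low cells, or 1201 RPM and 1129 RPM. It held 96.9% and 97.7% of the LysTTT reads, with a ratio of 1.06 (1.05 to 1.08). Both loci together took 92.9% of all lysine reads in AF25-high against 94.2% in AF25-low cells, so the sums of both anticodons follow them. Such concentration is not particular to lysine: of the 42 anticodons with at least 2 rows, 18 had a share in AF25-high at the most abundant locus as high as LysCTT or higher, itself included, and 8 as high as LysTTT or higher, itself included. A read that matches several loci equally was assigned by the authors to the most expressed of them, so the split among loci of similar sequence is uncertain.

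The next loci had the same direction and higher ratios. The locus chr9.trna1035-LysCTT had 4958 reads in AF25-high against 3377 in AF25-low cells, or 172 RPM and 116 RPM, a ratio of 1.48 (1.42 to 1.55). For LysTTT, chr7.trna1276-LysTTT had 1043 and 696 reads, or 36.1 RPM and 23.9 RPM, a ratio of 1.51 (1.37 to 1.67), and chr13.trna89-LysTTT had 65 and 42 reads, a ratio of 1.56 (1.04 to 2.36). These 3 loci stayed above 1 under each of the 6 scalings, with 1.01, 1.03 and 1.06 as the lowest values, at which their intervals held 1. The interval of chr13.trna89-LysTTT held 1 under all 3 scalings within the tRNA table, by the median of ratios from 0.776 to 1.75. The ratios of chr3.trna292-LysCTT and chr11.trna1816-LysTTT lay below 1 under the 3 scalings within the tRNA table.

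Within an anticodon the split among loci therefore differed between the libraries. The odds that a LysTTT read lay at chr7.trna1276-LysTTT and not at another LysTTT locus were 1.42 times as high in AF25-high (1.29 to 1.57), at shares of 2.92% and 2.07%. For chr9.trna1035-LysCTT among LysCTT reads the corresponding value was 1.16 (1.11 to 1.21), at shares of 9.77% and 8.55%. Without the most abundant locus, LysCTT had a ratio of 1.45 (1.39 to 1.51) and LysTTT a ratio of 1.48 (1.35 to 1.63), so that the anticodons no longer differed beyond counting error.

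**Figure D2:**
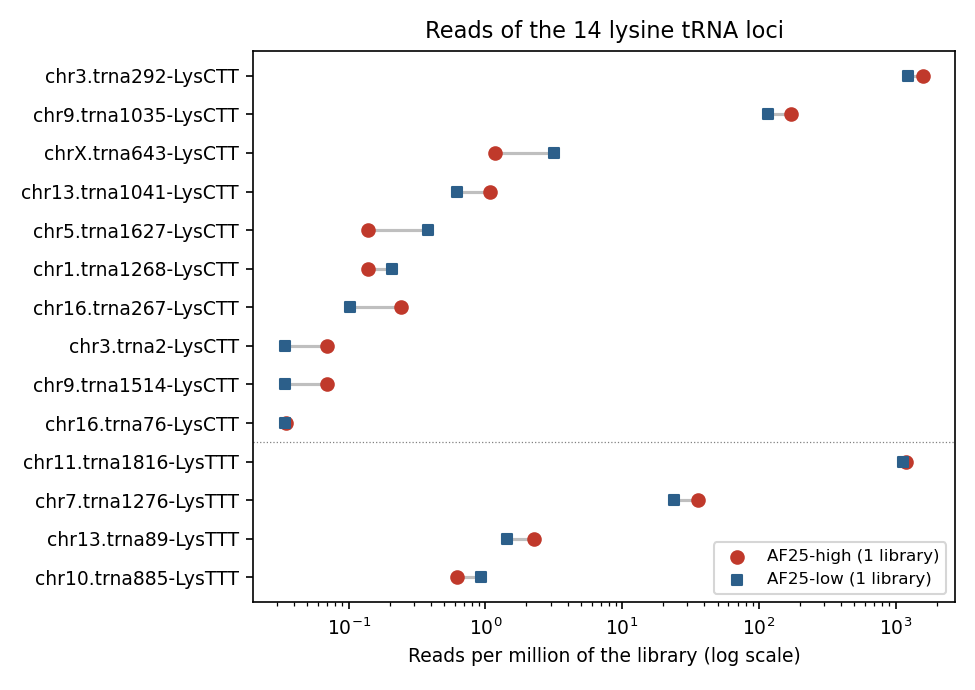
RPM (x axis, log scale) of the 14 lysine tRNA loci in AF25-high (red circles) and AF25-low cells (blue squares), 1 library each, ordered by reads within LysCTT (top) and LysTTT (bottom). chr3.trna292-LysCTT and chr11.trna1816-LysTTT lie above 1000 RPM in both libraries, and chrX.trna643-LysCTT is the most abundant locus with fewer RPM in AF25-high.

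The locus on chromosome X went the other way. chrX.trna643-LysCTT had 34 reads in AF25-high against 93 in AF25-low cells, or 1.18 RPM and 3.20 RPM, a ratio of 0.369 (0.241 to 0.552). Its ratio stayed below 1 under all 6 scalings, from 0.251 to 0.371. It was the third most abundant LysCTT locus but held 0.0670% of LysCTT reads in AF25-high against 0.235% in AF25-low cells, too few to move the sum. RefSeq lists 1 LysCTT gene on this chromosome of GRCm38.p6, n-TKctt19 of 73 bp at chrX:136195732-136195804, which overlaps no gene of GENCODE M21. Whether this is the locus that the table means cannot be read from the table.

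Of the lysine loci, 8 had at least 20 reads in the higher library. Of these, 6 had more RPM in AF25-high, 3 of each anticodon, beside 71.8% of the 149 tRNA loci at this minimum. The interval lay above 1 for 5 (63.1% of all tRNA loci) and below 1 for chrX.trna643-LysCTT alone (15.4%). This locus was also the 1 lysine locus at least 2-fold lower in AF25-high (2.68%), and 0 lysine loci were at least 2-fold higher (20.8%), so that 1 was 2-fold apart in either direction (23.5%). After scaling by the median of ratios, 4 of 8 had a ratio above 1 (52.3% of all tRNA loci), 2 had an interval above 1 (37.6%) and 4 an interval below 1 (37.6%). Under that scaling 0 were at least 2-fold higher (5.37%), and chrX.trna643-LysCTT and chr10.trna885-LysTTT were at least 2-fold lower (6.04%), 2 loci 2-fold apart in all (11.4%). The median ratio was 1.38 for the 8 lysine loci and 1.41 for all tRNA loci at this minimum. The intervals of chr13.trna1041-LysCTT (31 and 18 reads, ratio 1.74, 0.942 to 3.30) and chr10.trna885-LysTTT (18 and 27 reads, ratio 0.672, 0.349 to 1.27) held 1.

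**Figure D3:**
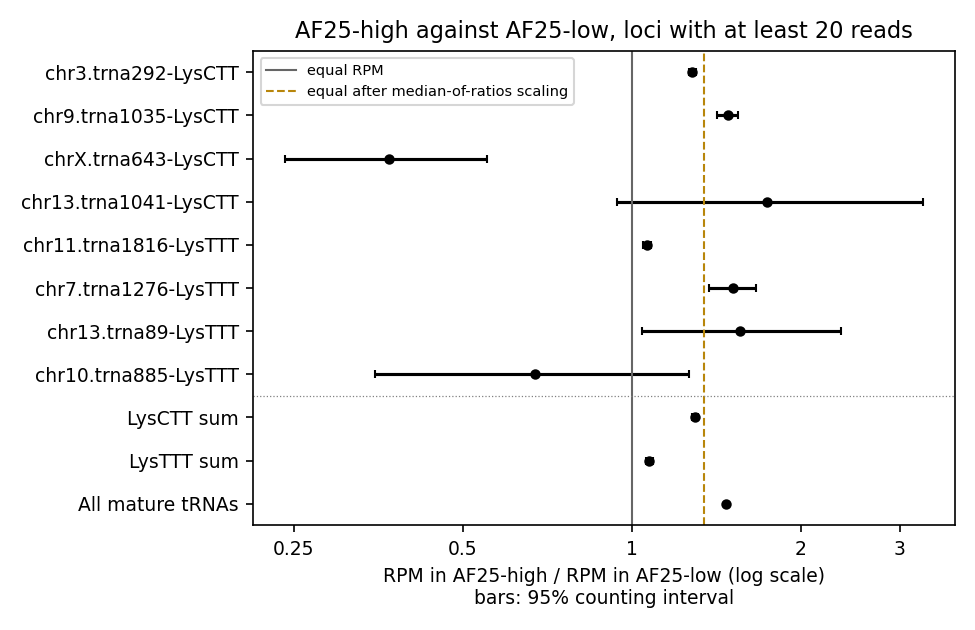
Ratio of the RPM of AF25-high to that of AF25-low cells (x axis, log scale) for the 8 lysine loci that reach 20 reads in 1 of the libraries, for the sums of LysCTT and LysTTT and for all mature tRNAs; points are ratios and bars 95% counting intervals. The dashed line at 1.34 is where equal levels lie after scaling by the median of ratios, and it falls above the sum of LysCTT (1.30) and the sum of LysTTT (1.07), while chrX.trna643-LysCTT (0.369) lies below both lines.

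The remaining 6 loci, all LysCTT, had between 1 and 7 reads in AF25-high and between 1 and 11 in AF25-low cells. Their ratios lay above 1 for 4 and below 1 for 2, and all 6 intervals held 1, so no difference was detectable at this depth. The same counts over all tRNA loci under 20 reads were not computed, so these counts have no background. The largest of them by reads was chr5.trna1627-LysCTT, with 4 reads in AF25-high against 11 in AF25-low cells (ratio 0.367, 0.0852 to 1.24). All LysCTT loci after the 2 most abundant summed to 85 and 134 reads, a ratio of 0.640 (0.482 to 0.846). Without the locus on chromosome X they had 51 and 41 reads and a ratio of 1.25 (0.815 to 1.94), so the lower sum rests on that locus.

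Searched by the gene symbols n-TKctt and n-TKttt alone, RefSeq lists 24 LysCTT genes on 12 chromosomes and 2 LysTTT genes, all of 73 bp, on GRCm38.p6. Both LysTTT genes, n-TKttt23 at chr13:21907940-21908012 and n-TKttt22 at chr13:21971788-21971860, lie on chromosome 13 and outside the genes of GENCODE M21. chr13.trna89-LysTTT is the 1 LysTTT locus on this chromosome in the table, and which of the genes it names is not given. For chr11.trna1816-LysTTT, which holds most LysTTT reads, RefSeq has no LysTTT gene under these symbols on the chromosome, nor for chr7.trna1276-LysTTT and chr10.trna885-LysTTT. The same holds for LysCTT genes at chr16.trna267-LysCTT and chr16.trna76-LysCTT. On chromosome 9, n-TKctt4 (chr9:14958433-14958505) lies in an intron of the long noncoding RNA Gm47214 and n-TKctt18 (chr9:90126509-90126581) lies between genes. On chromosome 3, where chr3.trna292-LysCTT lies, there are 3 LysCTT genes, n-TKctt9, n-TKctt15 and n-TKctt16. On chromosome 5, RefSeq has n-TKctt8 at chr5:98041090-98041162.

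LysCTT took more of the lysine reads in AF25-high. Of the lysine reads, LysCTT held 58.7% in AF25-high (95% interval 58.3% to 59.0%) and 54.0% in AF25-low cells (53.7% to 54.4%). This is 1.42 LysCTT reads per LysTTT read in AF25-high against 1.18 in AF25-low cells, a ratio of odds of 1.21 (1.18 to 1.23) that no scaling changes. chr3.trna292-LysCTT against chr11.trna1816-LysTTT alone gave 1.20 (1.18 to 1.23). Without these loci the ratio of odds was 0.976 (0.880 to 1.08), so this difference rests on the most abundant locus of each anticodon.

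Other amino acids also have tRNAs that differ by C or T at the wobble base. GluCTC held 66.2% of the reads of GluCTC and GluTTC in AF25-high against 62.9% in AF25-low cells, a ratio of odds of 1.16 (1.12 to 1.19). This is below that of lysine, and the overlap of their intervals does not show that they are equal. The arginine tRNAs ArgCCT and ArgTCT gave 1.52 (1.46 to 1.58), with ArgCCT at 80.9% and 73.7%. The leucine tRNAs LeuCAA and LeuTAA gave 1.65 (1.53 to 1.76), with LeuCAA at 42.1% and 30.7%. The glutamine tRNAs went the other way, with GlnCTG at 76.7% of the reads in AF25-high against 79.4% in AF25-low cells and a ratio of odds of 0.850 (0.782 to 0.924). These 5 pairs were a choice. The table holds 13 such pairs in all, counted after their values were seen. The interval of the ratio of odds lay above 1 for 9 of them and below 1 for 4, with ProCGG and ProTGG (0.772), ArgCCG and ArgTCG (0.692) and LeuCAG and LeuTAG (0.576) on the side of glutamine. Lysine ranked 7 of the 13, in the middle of this order. Beside lysine, 1 other pair, ArgCCT and ArgTCT, had both anticodons within 5% of the list behind the library totals. The ratios of odds of the remaining 11 pairs, and so this order, depend on the table used. By the fold changes the study gives per anticodon, LeuCAA lies below LeuTAA, so the direction of this pair turns. The direction of LeuCAG and LeuTAG turns as well, and that of the proline and alanine pairs turns by a small margin. The pairs of glutamine and glutamate and the rest keep their direction.

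**Figure D4:**
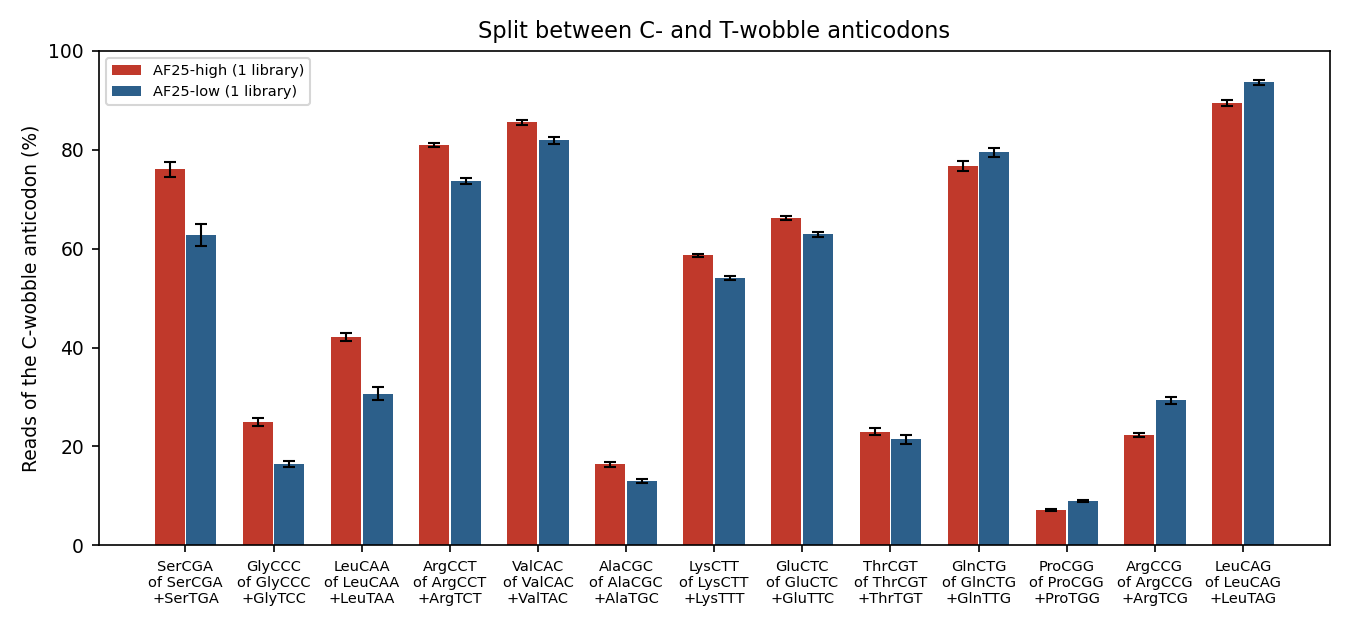
Share of reads of the anticodon with C at the wobble base (y axis, percent) among both anticodons of a pair, for all 13 pairs in order of their ratio of odds, in AF25-high (red) and AF25-low cells (blue), 1 library each; bars start at 0 and error bars are exact 95% counting intervals. LysCTT holds 58.7% and 54.0% of lysine reads, and the share is lower in AF25-high for 4 pairs at the right (GlnCTG, ProCGG, ArgCCG and LeuCAG).

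Lists of tRNAs that share a modification or a way of cleavage place the lysine anticodons among their peers. The tRNAs with mcm5s2U at the wobble base, GluTTC, GlnTTG and LysTTT, all had intervals above 1, and LysTTT was the lowest of the 3, below GlnTTG (1.13, 1.05 to 1.22). Their sum had a ratio of 1.15 (1.13 to 1.16), or 1.32 without LysTTT, which holds most of these reads. All 12 anticodons on a list of tRNAs with t6A, the modification shared by both lysine tRNAs, had intervals above 1, beside 38 of the 52 anticodons. IleGAT, which belongs to the same class and was left off this list, had 101 and 119 reads and a ratio of 0.856 (0.650 to 1.13), so 12 of 13 had an interval above 1 with it. LysCTT ranked 7 and LysTTT 10 of these 12, which ran from the asparagine tRNA AsnGTT (4.40) down to ArgTCT (1.04), and the sum had a ratio of 1.40 (1.39 to 1.41), or 1.59 without lysine. Of 9 common sources of 5′ fragments, 7 had intervals above 1 (38 of all 52) and 2, GlyGCC and ValAAC, below (6 of all 52). LysCTT held the sixth place, between HisGTG and GlyCCC, and had the most reads of this list in both libraries. GluTTC, GlnTTG, GlyGCC, GlyCCC, ValCAC, ValAAC, ThrCGT, ThrTGT and IleGAT lay further than 5% from the list behind the library totals. The 1.32 of the mcm5s2U list without LysTTT rests on GluTTC and GlnTTG alone. By the fold changes the study gives per anticodon, GlyGCC, ValAAC and IleGAT lie above equal levels and GlyCCC below them. In those fold changes GlnTTG lies level with LysTTT. The counts that include these anticodons, and the places of LysCTT and LysTTT beside them, can therefore turn with the table used. After scaling by the median of ratios, 0 of the 3 mcm5s2U, 6 of the 12 t6A and 3 of the 9 fragment-source anticodons had a ratio above 1, beside 26 of all 52.

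Mitochondria have a lysine tRNA of their own, mt-Tk, which reads both lysine codons. It lies on the plus strand of the mitochondrial genome at chrM:7700-7764 of GRCm38 in GENCODE M21 and has 65 bases. It is the 1 lysine tRNA whose sequence is shown, and its anticodon, TTT at positions 27 to 29, is in capitals:
mt-Tk: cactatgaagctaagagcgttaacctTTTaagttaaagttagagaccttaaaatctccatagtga
These 3 bases are the middle of a loop of 7 bases closed by a stem of 5 base pairs, the 1 such stem and loop around TTT in the sequence.

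The Ensembl table listed mt-Tk with 845 reads in AF25-high against 859 in AF25-low cells, or 29.3 RPM and 29.5 RPM. Its ratio was 0.992 (0.901 to 1.09), with an interval that held 1, and it was the second most abundant of 22 mitochondrial tRNAs, whose sum had a ratio of 1.44 (1.39 to 1.48). By ratio it ranked 19 of the 22. There were 102 reads of LysCTT and LysTTT for each read of mt-Tk in AF25-high against 85.1 in AF25-low cells, which gave a ratio of odds of 1.20 (1.09 to 1.32). Scaling within the Ensembl table gave mt-Tk a ratio of 0.861 (0.782 to 0.948) by the median of ratios and 1.40 (1.27 to 1.54) by the total of the table. These intervals lie on opposite sides of 1, so the reading of mt-Tk depends on the scaling.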

How the data were processed

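Small RNA of 1 AF25-high and 1 AF25-low library was sequenced on the DNBseq platform. The authors aligned reads to GRCm38 and to small RNA databases (sRNAbench, with Bowtie). They assigned reads of several loci to the most expressed locus. The tables hold sense reads, scaled per library and table by the median of ratios, as read from the values. No tool versions are given in the sources used here. Deposited signal values (normalized counts) were divided by the smallest value above 0 of their column, which gave whole reads for 100% of values (relative tolerance 1e-06). The authors' columns of fold changes and p-values and the RNAcentral table, whose entries carry no anticodons, were not used.

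Library totals for RPM were the medians, over the 38 anticodons that reach 100 RPM in each library, of reads divided by the RPM the study lists per anticodon. Of these 38 anticodons, 17 lay within 5% of the list in both libraries after this scaling, LysCTT and LysTTT included, and the totals are estimates. Since these anticodons set the totals, their closeness to the list is not an independent check. Intervals of ratios and shares are exact Clopper-Pearson intervals and those of ratios of odds exact conditional intervals, all at 95%. Ratios of odds compare reads of these 2 libraries, not the conditions. Counts of loci are over those that reach 20 reads in 1 of the libraries. Named with full values are the loci that hold 90% of the reads of an anticodon (at least 3 per anticodon) and, among loci with at least 50 reads, the 2 highest and 2 lowest ratios per anticodon; other loci, such as chr13.trna1041-LysCTT, chr10.trna885-LysTTT and chr5.trna1627-LysCTT, were chosen after their values were seen. The pairs of anticodons at the wobble base were 5 at first, and all 13 were added after seeing the data. The members, lists and rules were chosen with earlier results of these data known. The ratios and their intervals were tested on simulated counts, with the library totals given. The recovery of reads, the estimate of the totals, the ratios of odds and the spread among cultures were not tested this way. Alternatives were other scalings (TMM from edgeR 4.0.16 in R 4.3.3, without a count test, since no replicates exist), other minimums and leaving out the most abundant loci. Python 3.11.15 was used with scipy 1.17.1, numpy 2.4.6, matplotlib 3.10.9 and pandas 2.3.3. Names and positions came from GENCODE M21 and RefSeq (GRCm38.p6). Lysine tRNA genes of RefSeq were found by the symbols n-TKctt and n-TKttt, and genes under other symbols were not searched.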

Additional observations from a re-analysis of the deposited data

How the results depend on the processing

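Scaling by the microRNA RPM that the study lists multiplies the same library totals by these RPM. Scaling by its tRNA RPM reuses the same tRNA reads, so neither is an independent check of the library totals. Both kept LysCTT, LysTTT and their sum within the counting interval. The 3 scalings within the tRNA table turned them below 1: LysCTT to 0.963 (median of ratios), 0.972 (TMM) and 0.881 (total), LysTTT to 0.798, 0.806 and 0.730, and all lysine tRNAs to 0.887, 0.896 and 0.811, in this order. They likewise turned chr3.trna292-LysCTT to 0.952, 0.961 and 0.871 and chr11.trna1816-LysTTT to 0.791, 0.799 and 0.723. The medians over all loci with at least 20 reads, the most abundant included, were 1.38 for LysCTT, 1.29 for LysTTT and 1.38 for all lysine tRNAs. Without the most abundant locus of each anticodon, LysCTT had 1.45, LysTTT 1.48 and all lysine tRNAs 1.46. The same omission turned the ratio of odds of LysCTT to LysTTT reads to 0.976 and moved that of lysine among tRNA reads to 0.956, and leaving out the 3 most abundant other anticodons moved the latter to 0.875. The count of lysine loci higher in AF25-high, 6 (beside 71.8% of all tRNA loci), was 4 by the median of ratios (52.3%). It was also 4 under the other scalings within the tRNA table and 10 with no minimum of reads. The count of loci at least 2-fold apart, 1 (23.5%), was 2 by the median of ratios (11.4%), 2 by the total and 5 with no minimum. At the settings without a percentage the share over all tRNA loci was not computed, so these counts have no background. The loci that enter with no minimum had at most 11 reads in a library. The causes were not tested. Chosen after seeing the data were the following. Without the locus on chromosome X, the LysCTT loci after the 2 most abundant turned from 0.640 to 1.25. Scaled by the total of the Ensembl table, mt-Tk turned to 1.40. By the median of ratios, the sum of the mcm5s2U list turned to 0.853 and that of the fragment sources from 1.34 to 0.996. Adding IleGAT to the t6A list left its sum at 1.40. No paired analysis was possible because each condition has 1 library, and for the same reason no replicate could be left out. Depth limits the 6 LysCTT loci under 20 reads, for which no difference was detectable.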
